A study of Mus musculus with 16 samples.

Results

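Integrins are the heterodimeric receptors, each of 1 α and 1 β subunit, through which cells hold on to the extracellular matrix or to other cells, and laminins are the heterotrimers of 1 α, 1 β and 1 γ chain that form the sheet of basement membrane under the epidermis. In skin, basal keratinocytes are anchored by hemidesmosomes, in which integrin α6β4 binds laminin-332, which holds the chains α3 and β3, and by focal contacts, in which β1 integrins such as α3β1 link matrix to actin. Other integrins mark the cells that carry them: αLβ2, αMβ2 and αEβ7 are leukocyte receptors, and αIIb is a platelet subunit. The genes were taken from the deposited count table by symbol. Every row named Itga, Itgb, Lama, Lamb or Lamc followed by a number was kept, with Itgav, Itgal and Itgam, and the row Itgax and the genes of integrin-binding proteins were set aside. This gave 35 of 27179 genes: 24 integrin subunits (15 α and 9 β) and 11 laminin chains (5 α, 3 β and 3 γ).

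Epidermal cells of 8 aged C57BL/6J mice were measured by bulk RNA sequencing. From 73 weeks of age, 4 mice were injected intraperitoneally with antibodies that block IL-17A and IL-17F, cytokines of inflamed skin, and 4 with control IgG, 3 times a week for 12 weeks. The former group, labelled anti-IL-17A/F, is called the treated mice here. The labels name no genetic change in either group, and only aged animals were compared. The library of each mouse was sequenced in 2 batches and both runs were summed, giving 42816157 to 53721153 counts per mouse. Markers of basal keratinocytes were abundant in every mouse: the summed level of 5 genes, among them Krt14, Krt15 and Col17a1, was 19519 to 25725 CPM with control IgG and 20560 to 23209 CPM with anti-IL-17A/F. CPM, the unit of level used throughout, is a gene's count divided by the TMM-scaled library size of that mouse, so that mice can be compared.

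Basal adhesion genes led the family. Compared between genes per kilobase of exon, Itga6 had the highest level, with 98.1 CPM per kilobase in control mice and 94.6 in treated mice. Lamb3 followed with 76.3 and 73.2 CPM per kilobase, Itgb4 with 72.4 and 72.3, and Itgb1, the β subunit shared by most matrix receptors, with 59.0 and 62.4. Further abundant genes were Itgb5 (39.7 and 39.2 CPM per kilobase), the αv partner that binds vitronectin, Lama3 (24.4 and 24.8), Itga3 (24.5 and 24.1), Lama5 (19.4 and 21.3) and Itgav (17.1 and 18.1). Lama3, Lamb3 and both subunits of α6β4 were thus among the 10 genes above 100 CPM. A further 9 genes lay between 10 and 100 CPM, 12 between 1 and 10, and 4 at or under 1 CPM. The per-kilobase level of Lama3 is uncertain, since its exon length covers a long and a short transcript that the counts do not separate. Itgb2l, a relative of Itgb2, had 1 count over all 8 mice and did not pass the filter on low counts, and the remaining 34 genes were tested.

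**Figure D1:**
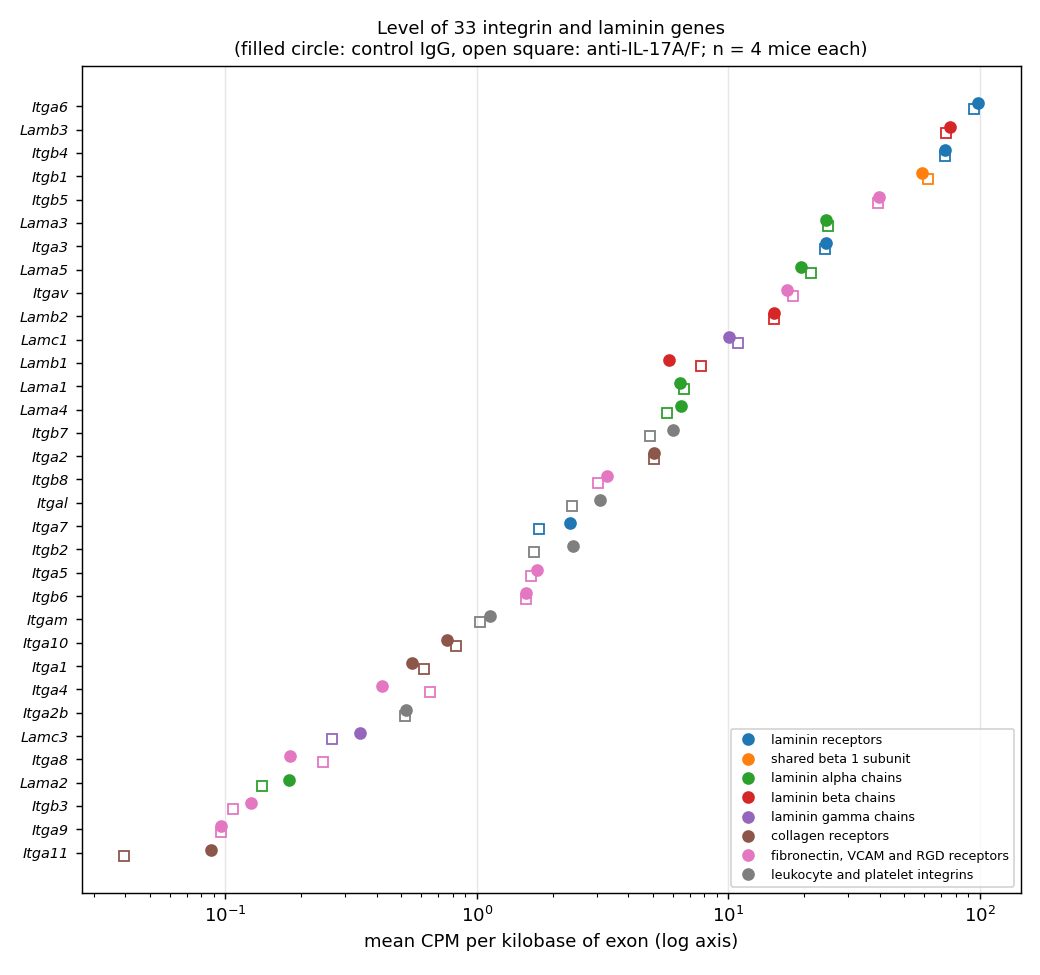
Mean level of 33 of the 34 tested genes in CPM per kilobase of exon (log axis), with filled circles for control IgG, open squares for anti-IL-17A/F and colours for the role of the gene. Itga6, Lamb3, Itgb4 and Itgb1 stand at the top in both groups, and Itga11 at the bottom is the gene whose group means lie farthest apart.

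The comparison asked whether blocking IL-17A and IL-17F in aged mice changed the transcripts of epidermal adhesion. With edgeR's quasi-likelihood test and Benjamini-Hochberg adjustment over all genes, 0 of the 34 genes were called at an adjusted p below 0.1, against a background of 0 of 16335 genes (0%). Unadjusted p was below 0.05 for 3 of the 34 genes (8.82%), against 4.03% of all genes tested. Lama5 was higher (background 2.45% for higher genes), and Itga7 and Itga11 were lower (background 1.57% for lower genes). DESeq2 called 11 of 13257 genes (0.083%), none of them an integrin or a laminin, and limma-voom called none. No gene of the family had all mice of one group above all mice of the other, a pattern seen in 2.42% of all genes. The fitted fold change was above 0 for 15 of the 34 genes (44.1%, against 50.1% of all genes) and the median log2 fold change was -0.0089, against 8.7e-05 over all genes. Adjusted p-values of the family lay between 0.984 and 0.9996.

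The abundant genes set narrow limits on any difference. Among the 10 genes above 100 CPM the farthest log2 fold change from 0 was 0.14, and the 95% interval reached 0.13 to 0.22 to either side of the estimate. For 9 of the 34 genes the whole interval lay within 0.25 of 0 on the log2 scale. Among the 12 genes between 1 and 10 CPM the interval reached 0.23 to 0.88 to either side. Moderate differences of these were not detectable where the interval was wide, with this spread between mice and number of mice. In counts simulated for this comparison over 16335 genes, many genes drawn from all levels were changed at once. At an adjusted p below 0.1 the same test recovered 9.33% of genes changed 1.2-fold, 54.7% at 1.5-fold and 83.3% at 2-fold. Many changed genes make the cut on the unadjusted p easier to pass. In the real data 0 genes were called, so these shares do not give the recovery for single genes of this family.

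**Figure D2:**
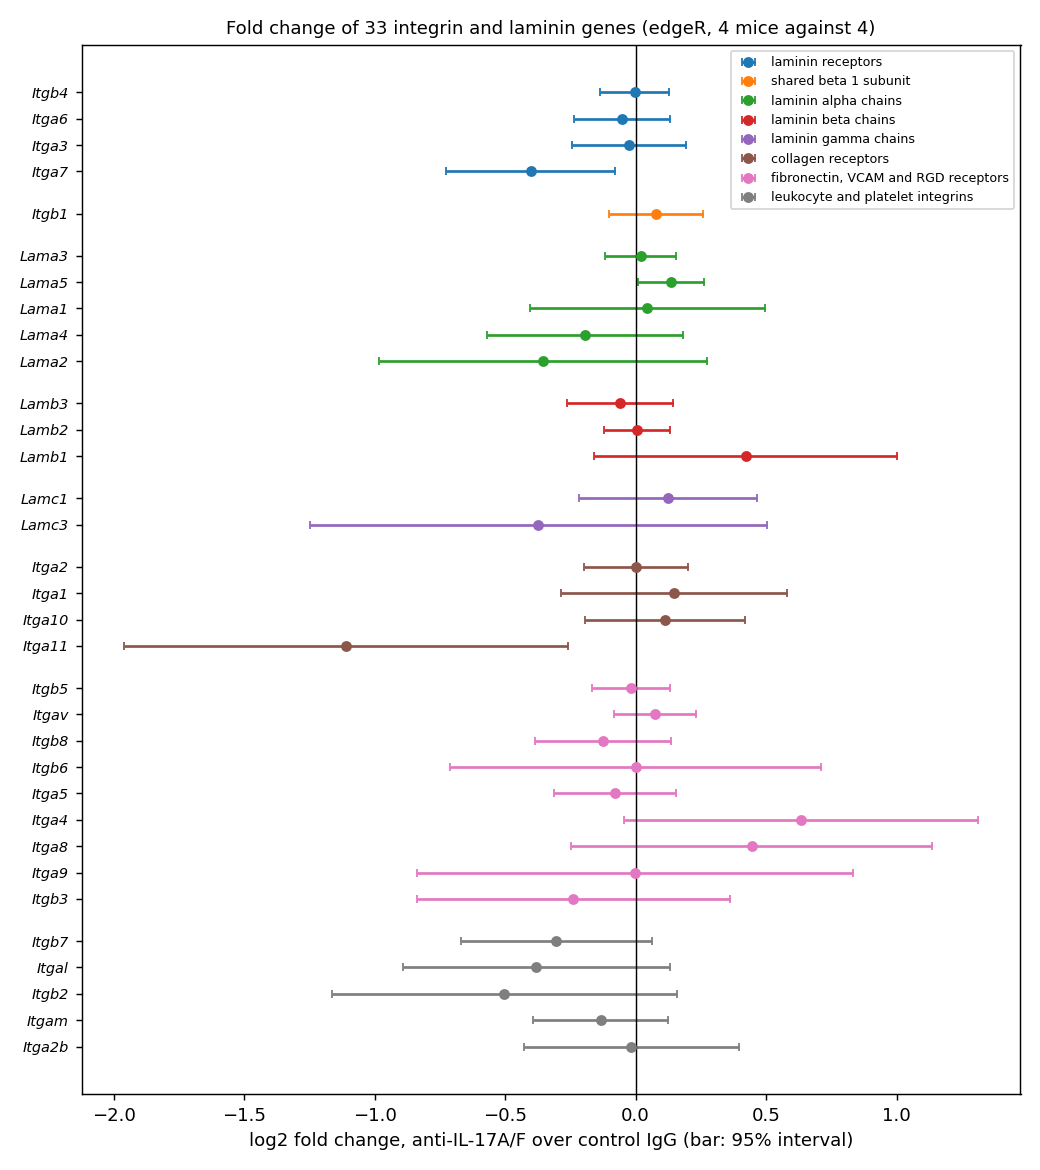
Log2 fold change of anti-IL-17A/F over control IgG for 33 of the 34 tested genes, grouped by role and ordered by level within a role, with bars for the 95% interval of the edgeR fit (4 mice against 4). The intervals of Itgb4, Itga6, Lama3 and Lamb3 are short and span 0, and of the genes drawn only Itga7, Lama5 and Itga11 have intervals that leave out 0, before any adjustment for the number of genes.

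Itgb4 and Itga6, the subunits of the hemidesmosome receptor, had like levels in both groups. Itgb4 (chromosome 11) was measured at 408, 444, 464 and 472.5 CPM in control mice 1 to 4 and at 469, 444, 434 and 440 CPM in treated mice 1 to 4. The values of the treated mice all fell inside the range of the controls, and the means were 447 ± 28.6 and 447 ± 15.6 CPM (SD, n = 4 each), a log2 fold change of -0.0021 (SE 0.059, interval -0.13 to 0.13). About 8.7% of the exonic sequence of Itgb4 overlaps a gene on the opposite strand, and it is not known whether the counting used strand. Itga6 (chromosome 2) was measured at 381, 403, 477 and 450 CPM in the controls and at 436, 373, 415 and 426 CPM in the treated mice. The groups overlapped, with means of 428 ± 43.5 and 412 ± 27.3 CPM and a log2 fold change of -0.05 (SE 0.082, interval -0.24 to 0.13).

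Lama3 and Lamb3, of laminin-332, did not separate the groups. Lama3, whose α3 chain carries the integrin-binding domain, was at 238, 261, 272 and 279 CPM in controls and at 283, 260, 257 and 264 CPM with anti-IL-17A/F (log2 fold change 0.02, SE 0.061). Lamb3 was at 281, 294, 320 and 376 CPM and at 321, 307, 283 and 308 CPM (log2 fold change -0.06, SE 0.090). For both chains the ranges of the groups overlapped. The direction of the difference in Lamb3 rested on a single mouse: without control mouse 4, its highest mouse, the log2 fold change was 0.03.

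**Figure D3:**
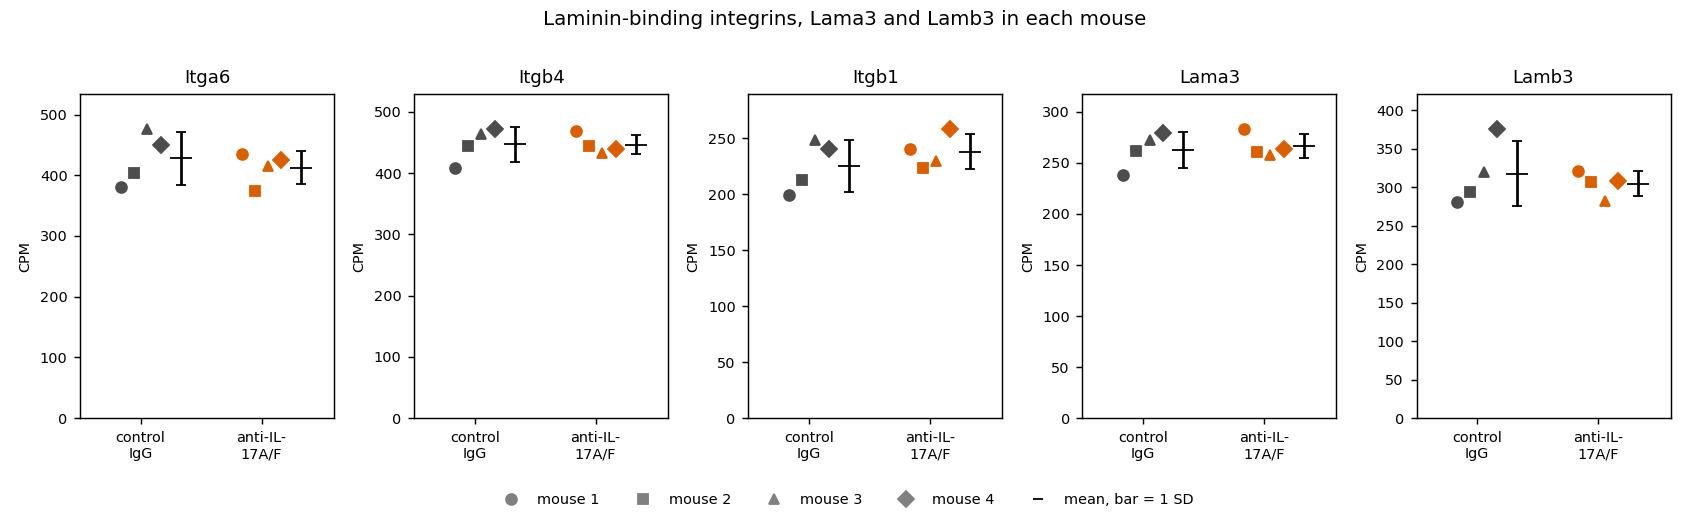
CPM of Itga6, Itgb4, Itgb1, Lama3 and Lamb3 in each mouse (axes start at 0, symbols give the mouse number, the black bar is mean ± 1 SD of 4 mice). In every panel the orange points of anti-IL-17A/F mice lie within or across the range of the gray control points, as for Itgb4 with means of 447 CPM in both groups.

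The partners that complete the hemidesmosome and its anchor showed the same picture. In a list of 5 such genes, 1 was higher, 4 were lower and 0 were called, with a median log2 fold change of -0.012. Col17a1, the transmembrane collagen of hemidesmosomes, was at 3970 ± 330.0 CPM in controls and 3775 ± 249 CPM in treated mice (log2 fold change -0.07, SE 0.080), and Col7a1, the collagen of anchoring fibrils, at 296 ± 23.7 and 307 ± 38.2 CPM (0.05, SE 0.095). Among 5 laminin receptors that are not integrins, 2 were higher, 3 were lower and 0 were called. Bcam, the Lutheran glycoprotein that binds laminin α5, was at 318 ± 31.0 and 349 ± 45.6 CPM (log2 fold change 0.14, SE 0.102).

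Itgb1 was at 200, 212, 248 and 240 CPM in control mice and at 241, 223, 230 and 258 CPM in treated mice. Control mouse 1 was the lowest and treated mouse 4 the highest, and the groups overlapped (225 ± 23.0 against 238 ± 15.5 CPM, log2 fold change 0.08, SE 0.080). Among its partners, Itga3, the α subunit of the focal-contact laminin receptor, was at 129 ± 16.5 and 127 ± 9.74 CPM (log2 fold change -0.02, SE 0.096), and Itga2, the main collagen receptor subunit of keratinocytes, at 36.0 ± 4.11 and 36.0 ± 2.38 CPM (0.0016, SE 0.088). Of the genes that carry integrin signals inward (talins, kindlins, focal adhesion kinase and other activators and adaptors), 25 of 27 were tested, 13 were higher, 12 were lower and 0 were called, with a median log2 fold change of 0.0048. The member of this list with the smallest p was Tns2, a tensin of adhesion sites, at 41.6 ± 2.504 and 47.6 ± 5.86 CPM (log2 fold change 0.20, SE 0.087, unadjusted p = 0.04996 by edgeR).

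Itga7 encodes a laminin receptor subunit best known from muscle. It was measured at 10.9, 8.40, 8.18 and 11.3 CPM in control mice and at 6.24, 8.65, 7.18 and 7.32 CPM in treated mice. Treated mouse 2 lay above control mice 2 and 3, while the other treated mice lay below all controls. The means were 9.70 ± 1.64 and 7.35 ± 0.991 CPM, a log2 fold change of -0.40 (SE 0.144, edgeR unadjusted p = 0.0208, adjusted p = 0.984). The value was -0.39 in batch 1 alone and -0.41 in batch 2 alone. The unadjusted p by edgeR was 0.0634 without control mouse 4, 0.0583 without control mouse 1 and 0.0601 without treated mouse 1.

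Lama5 encodes the α5 chain of laminin-511 and laminin-521, the other major laminins of the epidermal basement membrane. It was at 217, 219, 222 and 226 CPM in control mice, a coefficient of variation of 1.90%, and at 248, 252, 219 and 253 CPM in treated mice. Treated mouse 3 lay within the controls and the other treated mice above all of them. The means were 221 ± 4.19 and 243 ± 16.3 CPM, a log2 fold change of 0.14 (SE 0.055, interval 0.011 to 0.26, edgeR unadjusted p = 0.0366, adjusted p = 0.984). By edgeR it was 0.13 in batch 1 alone (unadjusted p = 0.0555, adjusted p = 0.981) and 0.15 in batch 2 alone (unadjusted p = 0.0284, adjusted p = 0.9999). Leaving out 1 mouse gave p between 0.0033 without treated mouse 3 and 0.0949 without treated mouse 2, and p was under 0.05 only without treated mouse 3 or control mouse 4.

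The farthest fold change belonged to Itga11, a collagen receptor subunit of fibroblasts, and rested on 129 counts in all, 89 in the controls and 40 in the treated mice. Its level was 0.555, 0.270, 0.420 and 0.489 CPM in control mice and 0.207, 0.093, 0.157 and 0.329 CPM in treated mice. Control mouse 2 lay below treated mouse 4, so the groups overlapped. The log2 fold change was -1.11 (SE 0.376, edgeR unadjusted p = 0.0160, adjusted p = 0.984). In batch 1 alone the gene did not pass the filter, and in batch 2 alone the value was -0.95 (edgeR unadjusted p = 0.150, adjusted p = 0.9999). Of 6 fibroblast markers 3 were higher and 3 lower, and their summed level was 17.9 to 36.1 CPM in controls and 23.3 to 42.0 CPM in treated mice.

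The make-up of laminin transcripts was described as the share of each chain within its class, per kilobase of exon. Among α chains Lama3 held 42.9 ± 1.90% in control mice and 42.3 ± 0.501% in treated mice (exact permutation test, two-sided, p = 0.6), and Lama5 held 34.1 ± 1.02% and 36.4 ± 2.16%. Lama4, the α chain of vessel and nerve basement membranes, held 11.4 ± 2.08% and 9.70 ± 1.89%. Lama1, the α chain of laminin-111, held 11.3 ± 0.372% and 11.3 ± 3.67%. Among β chains Lamb3 held 78.2 ± 2.91% and 76.1 ± 1.98% (exact permutation p = 0.314), with Lamb2 at 15.7 ± 1.08% and 15.9 ± 0.723%. The β3 chain, which occurs in laminin-332 and its relatives, thus held about 3 in 4 transcripts of its class in each group. The smallest p this exact test can give with 4 mice against 4 is 0.0286.

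Lama1 had like means and unlike spreads. It was at 56.5, 65.2, 60.2 and 63.1 CPM in control mice and at 77.8, 45.3, 83.6 and 45.8 CPM in treated mice. All control mice lay between the treated mice 1 and 3, which were higher, and the treated mice 2 and 4, which were lower. The SD was 3.76 CPM in controls and 20.4 CPM in treated mice, and the log2 fold change was 0.04 (SE 0.199). The difference in spread was not tested.

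Lamb1 and Lamc1, the β1 and γ1 chains of laminin-111, laminin-411 and laminin-511, were highest in a single treated mouse. Lamb1 was at 44.6, 33.7, 32.9 and 23.0 CPM in controls and at 32.5, 39.5, 38.7 and 69.0 CPM in treated mice 1 to 4 (log2 fold change 0.42, SE 0.257, edgeR unadjusted p = 0.135). Without treated mouse 4 it was 0.14. Lamc1 was at 83.2, 70.9, 78.0 and 73.3 CPM and at 71.6, 71.9, 74.4 and 115 CPM (log2 fold change 0.12, SE 0.150), and without that mouse it was -0.07. Itgb6, the αv partner known from wound-edge keratinocytes, was also highest there: 11.1, 7.36, 8.16 and 5.79 CPM in controls and 5.52, 5.79, 7.12 and 13.9 CPM in treated mice. Its means were 8.10 ± 2.22 and 8.09 ± 3.96 CPM, and without the mouse its log2 fold change was -0.40. In all, 9 of the 34 genes had their highest value in treated mouse 4, among them also Lama2, Itgb1, Lama5, Itga2b and Itga9. Control mice 3 and 4 each held the highest value of 7 genes. Control mouse 1 held the lowest value of 10 genes, among them Itga3, Itgb4, Lama3 and Lamb3. The same shares over all genes were not counted.

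In the same mouse the summed level of 4 proliferation genes was 428 CPM, against 150 to 274 CPM in the other 7 mice, and that of 4 melanocyte markers was 100.4 CPM, against 39.7 to 61.7 CPM. Markers of endothelial cells, all 6 of them tested, summed to 11.8 CPM there, against 4.30 to 9.50 CPM in the others. Also highest there were the summed markers of fibroblasts, at 42.0 CPM against at most 36.1 CPM in the others. Those of smooth muscle and pericytes reached 10.1 CPM against at most 9.15 CPM, and those of Schwann cells 7.26 CPM against at most 6.60 CPM. Their part in the levels of Lamb1, Lamc1 and Itgb6 was not tested.

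**Figure D4:**
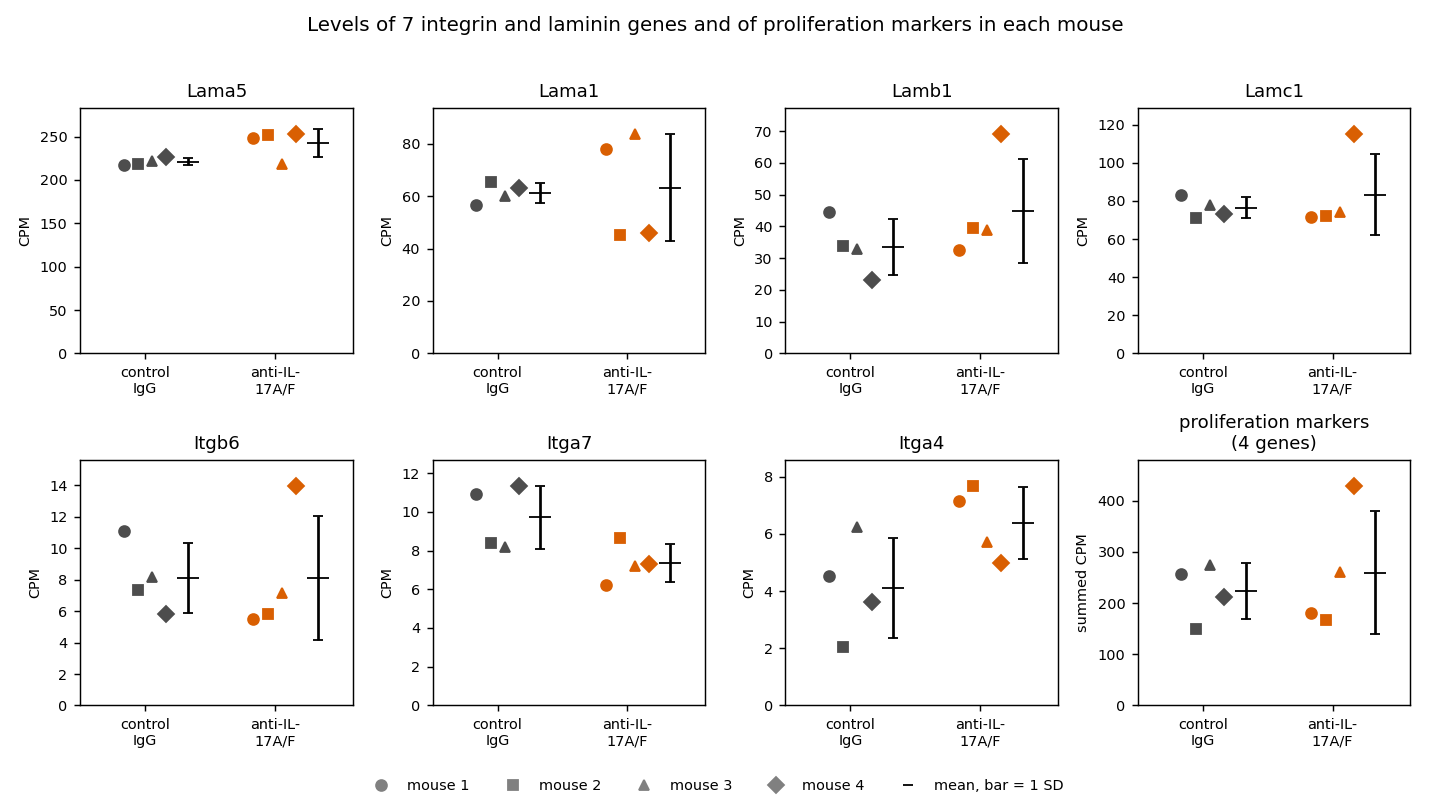
CPM of Lama5, Lama1, Lamb1, Lamc1, Itgb6, Itga7 and Itga4 in each mouse and the summed CPM of 4 proliferation genes (axes start at 0, symbols give the mouse number, the black bar is mean ± 1 SD of 4 mice). The diamond of anti-IL-17A/F mouse 4 stands alone at 69.0 CPM for Lamb1, 115 CPM for Lamc1 and 428 CPM for the proliferation genes, while Lama1 splits the treated mice into a higher and a lower pair.

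Basement membrane genes other than laminins lay mostly on the higher side. Of 15 such genes 13 had a fold change above 0 and 2 below, with a median log2 fold change of 0.30, and 0 were called. The median was 0.08 without treated mouse 4, whose summed level for the list was 1360 CPM, against 1099 to 1107 CPM in the other treated mice and 951 to 1106 CPM in controls. The smallest p belonged to Fras1, a protein of the Fraser complex at the epidermal-dermal junction, at 21.6 ± 11.2 and 42.8 ± 12.7 CPM (log2 fold change 0.99, SE 0.351, edgeR unadjusted p = 0.0201, adjusted p = 0.984). Npnt, nephronectin, a ligand of integrin α8β1, was at 58.7 ± 21.1 and 79.3 ± 14.6 CPM (0.43, SE 0.226). Itga8 itself was at 1.05 ± 0.333 and 1.42 ± 0.474 CPM (log2 fold change 0.45, SE 0.306), with 6.4% of its exonic sequence shared with a gene on the opposite strand. Markers of hair follicle stem cells lay on the same side: 4 of 4 had a fold change above 0, with summed levels of 177 to 299 CPM in controls and 242 to 340.2 CPM in treated mice, highest again in mouse 4. Their part in the result was not tested.

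The receptors of fibronectin, vascular cell adhesion molecule and other RGD ligands comprised 9 genes, of which 4 had a fold change above 0 and 5 below. Itgav, the shared αv subunit, was at 121 ± 9.94 and 127 ± 7.69 CPM (log2 fold change 0.08, SE 0.069). Itgb5 was at 130 ± 10.7 and 129 ± 6.60 CPM (-0.02, SE 0.066), and Itgb8, the partner that binds latent TGF-β, at 27.7 ± 5.02 and 25.4 ± 0.832 CPM (-0.13, SE 0.115). With control mouse 1 left out Itgb8 came to -0.0016, and with control mouse 3 left out to -0.22 (edgeR unadjusted p = 0.0441, adjusted p = 0.858), where the groups did not overlap, as in 6.62% of all genes without that mouse. Itga5, the classical fibronectin receptor subunit, was at 7.58 ± 0.724 and 7.18 ± 0.598 CPM (-0.08, SE 0.103). The least abundant were Itga9 at 0.689 ± 0.186 and 0.685 ± 0.350 CPM and Itgb3 at 0.733 ± 0.231 and 0.620 ± 0.127 CPM. The log2 fold change of Itgb3 was -0.24, with -0.71 in batch 1 alone (edgeR unadjusted p = 0.0287, adjusted p = 0.981) and 0.24 in batch 2 alone, so the batches gave opposite directions.

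Itga4, the α subunit of a fibronectin and VCAM receptor, stood apart from these. It was at 4.54, 2.04, 6.25 and 3.62 CPM in control mice and at 7.16, 7.67, 5.71 and 4.98 CPM in treated mice. Control mouse 3 lay above treated mice 3 and 4, and all other controls lay below every treated mouse. The log2 fold change was 0.63 (SE 0.30, interval -0.05 to 1.31, edgeR unadjusted p = 0.0641), 0.72 in batch 1 alone and 0.52 in batch 2 alone. With control mouse 2 left out it came to 0.41, and with control mouse 3 left out to 0.91 (edgeR unadjusted p = 0.0111, adjusted p = 0.858). The groups then did not overlap, as in 6.62% of all genes without that mouse, which was the only control above any treated mouse. Of its exonic sequence 11.5% overlaps Cerkl on the opposite strand. Fn1, fibronectin, the ligand of both Itga4 and Itga5 receptors, had the smallest p of 10 tested genes for other integrin ligands, of which 8 were higher, 2 lower and 0 called. Fn1 was at 30.9, 19.4, 24.8 and 18.8 CPM in controls and at 39.7, 33.5, 38.0 and 52.7 CPM in treated mice, without overlap. Its log2 fold change was 0.80 (SE 0.184, edgeR unadjusted p = 0.00179, adjusted p = 0.984), and it was not called.

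The collagen receptors other than Itga2 and Itga11 were scarce. Itga1 was at 6.07 ± 1.65 and 6.72 ± 0.966 CPM (log2 fold change 0.15, SE 0.192) and Itga10 at 3.84 ± 0.454 and 4.15 ± 0.527 CPM (0.11, SE 0.136). Of the exonic sequence of Itga10 34.5% is shared with a gene model on the same strand, and of Itga1 6.25%, and no row of the count table bears the symbol of either model. The remaining laminin chains had means of 85.4 ± 3.60 and 85.7 ± 5.35 CPM for Lamb2 (log2 fold change 0.0063, SE 0.055), 39.2 ± 7.35 and 34.3 ± 6.53 CPM for Lama4 (-0.20, SE 0.166), 1.72 ± 0.194 and 1.34 ± 0.579 CPM for Lama2 (-0.35, SE 0.278) and 2.01 ± 0.935 and 1.55 ± 0.648 CPM for Lamc3 (-0.37, SE 0.387). Lama2 was at -0.16 without treated mouse 3 and at -0.68 without treated mouse 4 (edgeR unadjusted p = 0.0107, adjusted p = 0.861), where its groups did not overlap, as in 5.68% of all genes without that mouse. Lamc3 was at -0.018 without control mouse 4, at -0.14 without treated mouse 3 and at -0.63 without treated mouse 4.

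All 5 tested genes grouped as leukocyte and platelet integrins had a fold change below 0, with a median of -0.30, and 0 were called. The direction depends on this grouping: Itga4, whose α4 subunit leukocytes also carry, was grouped with the fibronectin and VCAM receptors and went the other way (log2 fold change 0.63). Itgb2, the β subunit of all β2 integrins, was at 3.86, 5.435, 11.3 and 7.90 CPM in control mice and at 5.20, 4.49, 5.91 and 4.51 CPM in treated mice (log2 fold change -0.50, SE 0.293). Itgal, its partner in the lymphocyte receptor LFA-1, was at 10.05, 13.1, 21.5 and 20.04 CPM and at 10.6, 12.3, 12.6 and 14.2 CPM (-0.38, SE 0.226). Itgb7, the partner of αE and α4 on T cells, was at 12.3, 13.2, 19.9 and 18.9 CPM and at 11.4, 13.3, 13.2 and 14.2 CPM (-0.30, SE 0.162). For these 3 genes control mice 3 and 4 were above every other mouse, and control mice 1 and 2 lay among or below the treated mice. Itgae, encoding αE, showed the same order, at 26.9, 31.8, 43.2 and 43.5 CPM in controls and 23.5, 28.6, 31.8 and 30.0 CPM in treated mice (log2 fold change -0.35, SE 0.163, edgeR unadjusted p = 0.0598). Without control mouse 3 the log2 fold change of Itgb2 was -0.19, of Itgal -0.21 and of Itgb7 -0.18, and that of Itga2b was 0.08, above 0. Without control mouse 4 the value of Itgal was -0.26. Without control mouse 1 the values by edgeR were -0.70 for Itgb2 (unadjusted p = 0.0160, adjusted p = 0.688), -0.55 for Itgal (unadjusted p = 0.0131, adjusted p = 0.673) and -0.41 for Itgb7 (unadjusted p = 0.0235, adjusted p = 0.701), and 6.32% of all genes then had an unadjusted p below 0.05.

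Itgam, the α subunit of the myeloid receptor Mac-1, was at 5.27 ± 0.361 and 4.81 ± 0.546 CPM (log2 fold change -0.13, SE 0.114), and was not highest in control mouse 3. Of its exonic sequence 73.7% is shared with a gene model on the same strand whose symbol no row of the count table bears. Itga2b, the platelet subunit αIIb, was at 1.79 ± 0.295 and 1.77 ± 0.318 CPM (-0.02, SE 0.182). Of 5 other platelet markers only 1 passed the filter: Gp1bb, whose count was 23897 over all mice, against 0 for Ppbp, 8 for Pf4, 2 for Gp9 and 23 for Gp5, genes looked up after the values of Itga2b were seen.

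The summed levels of T cell markers and of macrophage and dendritic cell markers were also highest in control mice 3 and 4. All 6 T cell markers had a fold change below 0 (median -0.24), with summed levels of 135, 160, 205 and 202 CPM in control mice and 134, 145, 144 and 189 CPM in treated mice, and none was at 0. All 8 markers of macrophages and dendritic cells, a list that holds Langerhans cell langerin (Cd207), also had a fold change below 0 (median -0.50), with sums of 18.4, 22.1, 57.6 and 49.5 CPM in controls and 30.1, 22.0, 29.1 and 22.6 CPM in treated mice. Cd207 itself was at 5.31, 6.98, 21.6 and 17.7 CPM in controls and at 9.45, 6.86, 10.1 and 7.30 CPM in treated mice. None of these genes was called. Of 5 neutrophil markers 2 passed the filter, with sums of 0.852 to 1.77 CPM in controls and 0.883 to 1.98 CPM in treated mice, highest in treated mouse 2, and Ly6g was at 0. In bulk samples fewer cells of a type and less RNA per cell cannot be told apart, and the part of these cells in the levels of Itgal, Itgb2 and Itgb7 was not tested.

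**Figure D5:**
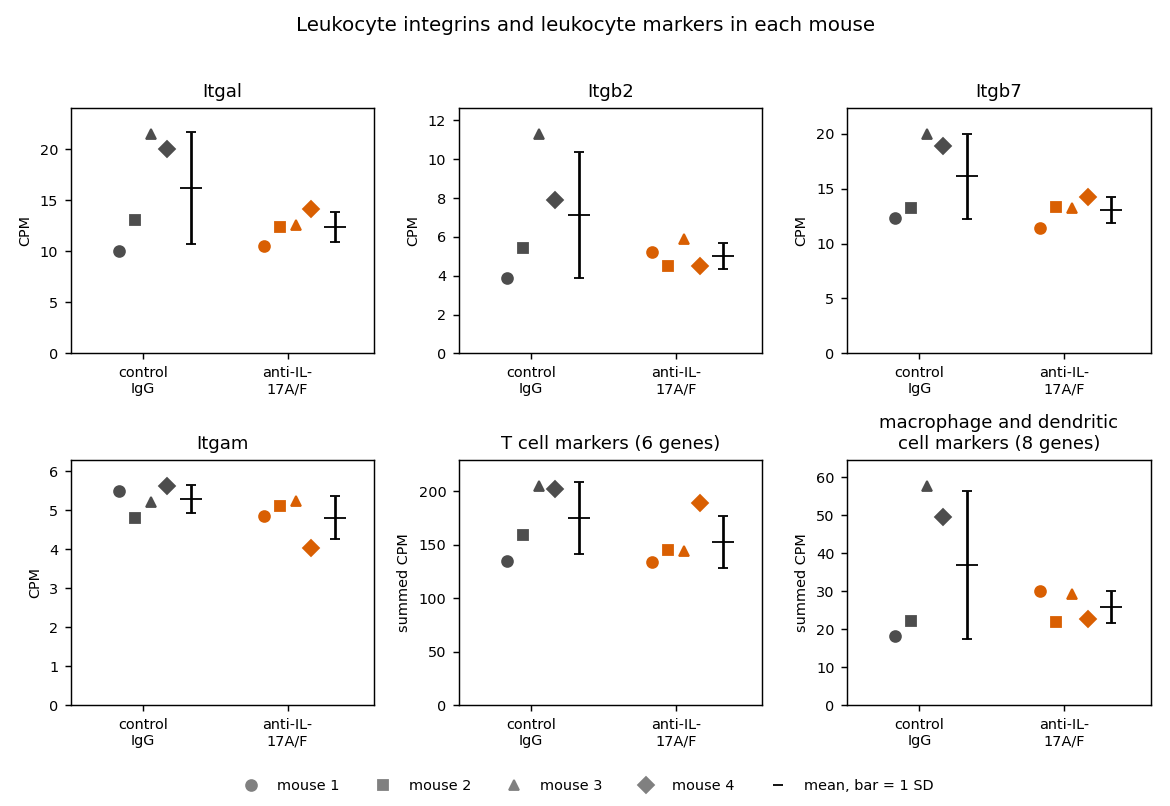
CPM of Itgal, Itgb2, Itgb7 and Itgam in each mouse beside the summed CPM of 6 T cell markers and of 8 macrophage and dendritic cell markers (axes start at 0, symbols give the mouse number, the black bar is mean ± 1 SD of 4 mice). The triangle and diamond of control mice 3 and 4 stand above all other mice for Itgal, Itgb2, Itgb7 and both marker sums (205 and 202 CPM for T cells, 57.6 and 49.5 CPM for macrophages and dendritic cells), and not for Itgam.

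Subunits that assemble into one receptor or one laminin could also vary together from mouse to mouse, and 10 fixed pairs were compared over the 8 mice with exact permutation tests (two-sided, adjusted over the 10 pairs). No Pearson correlation passed an adjusted p of 0.05. For Lama3 and Lamb3 Pearson's r was 0.77 (exact p = 0.0292, adjusted p = 0.0729) and Spearman's rho was 0.95 (exact p = 0.00114, adjusted p = 0.0114). Without the 2 mice farthest from the median of Lama3 r was 0.94, and it was 0.72 in batch 1 alone and 0.84 in batch 2 alone.

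For Itga6 and Itgb4 r was 0.73 (exact p = 0.0375, adjusted p = 0.0750) and rho was 0.67 (adjusted exact p = 0.166), with r = 0.92 without the 2 farthest mice and 0.73 and 0.82 in the batches. For Itga2 and Itgb1 r was 0.76 (adjusted exact p = 0.0729) and rho 0.81, for Itga3 and Itgb1 r was 0.61 (adjusted exact p = 0.175) and rho 0.55, and for Itga9 and Itgb1 r was 0.47 (adjusted exact p = 0.292) and rho 0.60. Without the 2 mice farthest from the median r was 0.70, 0.10 and 0.42 for these pairs, and so fell most for Itga3 and Itgb1. Leaving out the mice that are farthest in the first gene of a pair narrows its range, which can lower r by itself. The largest r of the 8 pairs given here was that of Itgal and Itgb2, 0.88 (exact p = 0.00580, adjusted p = 0.0580, rho 0.79). Without the 2 mice farthest from the median of Itgal, which were control mice 3 and 4, it was 0.37, with the same limit. For Lamb1 and Lamc1 r was 0.83 (adjusted exact p = 0.0729, rho 0.57) over all mice and 0.58 (rho 0.49) without the 2 farthest. Itgam and Itgb2 had r = 0.31 (adjusted exact p = 0.423) and rho 0.24. Both genes of a pair were read from the same libraries, and what libraries share beyond the genes was not tested.

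IL-17 receptors signal through NF-κB among other factors, so the windows around the start sites of these genes were searched for the κB consensus on both strands. Of the 35 genes 23 had a window of 300 bases in RefSeq (GRCm38.p6), from 250 before to 50 after the start, 26 windows in all. A κB match was found in 2 of the 26, the overlapping windows of 2 starts of Lamb3, and in 4.51% of all 32851 windows. The first Lamb3 window (chr1:193301744-193302043, plus strand) is shown because it is the one site of the family with this match, which begins 23 bases after the start and stands in capitals.

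Lamb3: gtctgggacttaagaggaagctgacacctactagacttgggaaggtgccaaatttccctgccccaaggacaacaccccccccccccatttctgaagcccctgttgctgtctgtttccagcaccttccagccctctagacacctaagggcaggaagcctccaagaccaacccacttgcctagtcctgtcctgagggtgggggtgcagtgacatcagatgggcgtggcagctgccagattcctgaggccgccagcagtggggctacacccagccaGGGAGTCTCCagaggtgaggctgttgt

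Lamb3, with this match, had a log2 fold change of -0.06, and whether the match bears on it was not tested. Lama5 had no such match and was picked by its p in these data, so its fold change is not set against that of Lamb3. The window of Lama5 (chr2:180225810-180226109, minus strand, written 5′ to 3′ along the gene) is shown for comparison, as that of the abundant gene with the smallest p. It holds 4 GC boxes (GGGCGG or, on the other strand, CCGCCC), in capitals. This motif was present in 12 of the 26 windows, which belong to 11 of the 23 genes, and in 35.7% of all windows.

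Lama5: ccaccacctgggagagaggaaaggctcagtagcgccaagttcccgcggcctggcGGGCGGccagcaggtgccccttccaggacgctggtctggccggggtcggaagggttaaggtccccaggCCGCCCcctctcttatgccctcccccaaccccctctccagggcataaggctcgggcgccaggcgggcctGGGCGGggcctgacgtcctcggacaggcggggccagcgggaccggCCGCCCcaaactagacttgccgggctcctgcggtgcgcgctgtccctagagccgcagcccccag

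The AP-1 motif TGANTCA was in the windows of Itga3 and Itga9 and in 7.81% of all windows, and TATAAA was in none of the 26 and in 13.6% of all. A match is a description of these letters, and binding was not analysed here.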

How the data were processed

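Bulk RNA-seq of epidermal cells, separated from torso skin with dispase, was used. The authors prepared stranded poly(A) libraries, aligned single-end reads to mm10 with STAR 2.5.2b and counted reads with featureCounts. Its inbuilt mm10 gene models were used, and raw counts, with no normalization, were deposited by Entrez identifier. Reads over several genes were counted for each, multimapping reads were not counted, and the methods do not name a strand setting. Gene symbols (25275 of 27179 identifiers, 93.0%) and promoter windows came from RefSeq GRCm38.p6, and exon lengths from GENCODE M21 transcripts of the same build with a RefSeq accession.

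The runs of each mouse were summed and the groups compared with edgeR 4.0.16 (R 4.3.3; TMM, filterByExpr with minimum count 10 and minimum total 15, quasi-likelihood test, Benjamini-Hochberg over all 16335 genes tested, called below 0.1, the level of the study). CPM are given as mean ± SD, and intervals are at 95%. Per-gene SE were derived from the F statistic. DESeq2 1.42.0, also with a shrunken fold change over 1.25, and limma-voom (limma 3.58.1) were alternatives, besides other normalization, no filter, single batches, a replicate block and leaving out each mouse. Correlations and shares used Python 3.11.15 and scipy 1.17.1. The test was tested on simulated data. The labels do not say that the mice were independent of litter or cage. The study's model had a covariate for experimental batch. The labels give only a batch 1 and a batch 2, with every mouse in both, and whether that is the same batch is not known. With the runs summed no batch term was fitted.

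The genes and lists were chosen with earlier results of these data known. Named were all integrin and laminin genes, with values per mouse for Itga6, Itgb4, Itgb1, Lama3, Lamb3 and those with unadjusted p below 0.05, and up to 3 genes of each other list by smallest p. Of the family 1 gene, included in its counts, is not reported here. Values per mouse of further genes were added after the data were seen.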

Additional observations from a re-analysis of the deposited data

Results flagged for a closer look

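In groups of 4 mice, 62 in all for the genes above 1 CPM, the gap between the lowest or highest mouse and its nearest neighbour was compared with the whole range on the log2 scale, and 3 were far apart by Dixon's test. Chance gives about 1 in 20 such groups. Lamc1 was highest in anti-IL-17A/F mouse 4, at 115 CPM against 71.6 to 74.4 CPM in the other treated mice, and the gap was 0.919 of the range. Itga2 was lowest in anti-IL-17A/F mouse 3, at 32.5 CPM against 37.1 to 37.5 CPM in the other treated mice, with a gap of 0.919 of the range. Lama5 was lowest in the same mouse 3, at 219 CPM against 248 to 253 CPM in the other treated mice, with a gap of 0.869 of the range.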

How the results depend on the processing

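Under 16 alternatives 0 integrin or laminin genes were called. Over all genes DESeq2 called 11 (0.083%) and each other alternative called 0, so the count for the family is that of the background. The number with unadjusted p below 0.05 was 6 with limma-voom (6.73% of all genes), 4 with DESeq2 (3.47%) and 1 to 5 when single mice were left out (1 without anti-IL-17A/F mouse 1, against 2.63% of all genes, and 5 without control mouse 3, against 5.49%). The number without overlap was then 0 to 2, against 3.46% to 6.62% of all genes. Of 527 log2 fold changes of 33 genes under the alternatives 478 kept their direction. The 49 that turned belonged to 14 genes, none with a main value farther than 0.24 from 0. In batch 2 alone Itgb3 was 0.24 and Itgb4 4.7e-05. In batch 1 alone Itga2 was -0.038, Lamb2 -0.025, Itga9 0.058 and Itgb6 -0.063. With limma-voom Itga2 was -0.017 and Itgb6 -0.21, and Itgb6 was -5.9e-05 with no filter, -0.00024 with DESeq2 and -4.0e-05 with the shrunken fold. When single mice were left out, the range was -0.073 to 0.19 for Lamc1, -0.11 to 0.031 for Lamb3, -0.11 to 0.0296 for Itga3, -0.12 to 0.0900 for Itga2b, -0.040 to 0.0254 for Itgb4, -0.068 to 0.052 for Itga2, -0.052 to 0.0250 for Itgb5, -0.12 to 0.17 for Lama1, -0.022 to 0.049 for Lama3, -0.40 to 0.19 for Itgb6, -0.10 to 0.0038 for Itga6, -0.018 to 0.046 for Lamb2 and -0.36 to 0.23 for Itga9. Each of the 8 mice, left out alone, turned at least 1 of these genes, and the cause was not tested. The difference in share, treated minus control, was -1.27 to 0.168 percentage points for Lama3.

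Deviations from the group means of mice with the same number correlated at r = -0.27, 0.25, 0.19 and -0.14. Those of mice with unlike numbers correlated at -0.31 to 0.30. With 4 mice per group this cannot decide whether the numbers pair the samples. With the mouse number as a replicate block, 2 of the 34 genes had unadjusted p below 0.05, against 3.87% of all genes. In that fit 0 of the family and 0 of all genes were called. The median log2 fold change of the family was then -0.02, with Lama1 at -0.010 and Itgb6 at -0.078. The correlation of Itgam and Itgb2 was -0.082 without the 2 mice farthest from the median. Centred on group means, r was 0.80 for Itga2 and Itgb1, 0.83 for Lama3 and Lamb3, 0.84 for Lamb1 and Lamc1 and 0.86 for Itgal and Itgb2, each with an adjusted permutation p of 0.0252. The permutation moved centred values between the groups, where they are not exchangeable, so this p is not exact and may be too small. In batch 2 alone the adjusted p passed the threshold for Itga6 and Itgb4 (0.82), Itga2 and Itgb1 (0.89), Lama3 and Lamb3 (0.84) and Itgal and Itgb2 (0.86), and in batch 1 alone for none. The correlations within single batches were added after seeing the data. Depth limits the genes at or under 1 CPM, such as Itga11 with 129 counts.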
